A study of Mus musculus with 8 samples.

Results

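A set of 10 genes, 8 of them of actin filament turnover and 2 of the SH3BGR family, was read in single myocardial cells with and without Sox17. They were Sh3bgrl3, Sh3bgrl, Tmsb4x, Tmsb10, Pfn1, Cfl1, Cfl2, Dstn, Cap1 and Capzb, which is 10 of the 22593 genes named on the array, and they were covered by 16 of its 55681 probes. Sh3bgrl3 was picked because its signal was lower in the mutant cells, so its values are a description and support nothing by themselves. All probes carrying one of these symbols were kept, whatever they read.

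Each array held the amplified cDNA of 1 cell of a mouse embryo at embryonic day 8.5, with 9 somites, labelled as heart tube and taken from the ventricle per the study's methods. The WT cells were Mesp1+/+ and Sox17 flox/flox, and the KO cells were Mesp1 Cre/+ and Sox17 flox/flox, so both genotypes carried the floxed Sox17 alleles and in the KO cells Cre took the place of 1 Mesp1 allele. There were 4 cells of each genotype, called WT 1 to 4 and KO 1 to 4, and the comparison asked how the loss of Sox17 from mesoderm bears on the transcripts of the myocardium. Mesp1-Cre acts in early mesoderm, so the deletion reached endocardium as well as myocardium and the model is not specific to the cell type that was measured. No embryo, litter or culture was named for a cell. Each genotype therefore counted as 1 sample of cells, no test was run, and every SD below is the spread between 4 cells.

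Actin filaments grow at their barbed ends and are taken apart from their older ends, and the freed monomers are recycled. Thymosins (Tmsb4x, Tmsb10) hold monomers in reserve, profilin (Pfn1) delivers them to growing ends, cofilins and destrin (Cfl1, Cfl2, Dstn) sever and depolymerise old filaments, cyclase-associated protein (Cap1) helps cofilin and reloads monomers, and capping protein (Capzb is its beta subunit) closes barbed ends. In striated muscle, capping protein also anchors thin filaments at the Z-disc. Sh3bgrl3 and Sh3bgrl belong to the SH3BGR family of small proteins with a thioredoxin-like fold, whose founding member Sh3bgr is expressed in heart and skeletal muscle.

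The sequences of the probes on which the readings turn are given first, as deposited with the arrays and 5′ to 3′, with positions in mouse build mm9. For Sh3bgrl3 they show that its 2 probes sit at separate places of the transcript. The probe starting at base 233 of the transcript lies at chr4:133683846-133683905 and the probe starting at base 640 at chr4:133683328-133683387, both on the minus strand. Only the last 30 bases of the second are printed, with ATTAAA, a common variant of the polyadenylation signal, in capitals.
Sh3bgrl3, base 233: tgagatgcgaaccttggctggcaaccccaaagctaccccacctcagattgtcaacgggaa
Sh3bgrl3, base 640, last 30 bases: cctagagacaATTAAAtgtccattcctctg
The letters ATTAAA were found on the printed strand of 2197 of all 55681 probes (3.95%), on the other strand of 1407 (2.53%), and on either strand of 3530 (6.34%). Of the 16 probes described here, 2 had them, the Sh3bgrl3 base 640 probe as printed and the Tmsb4x probe on the other strand only. A match is a description of the letters and not of a used site.

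Tmsb10 and Cfl1 each had a probe placed on another chromosome than the gene. Whether copies of a gene entered such a reading was not tested. One Tmsb10 probe was placed on chromosome 7 and the other on chromosome 6, where RefSeq puts the gene, yet the pair shared a run of 57 bases with 3 mismatches. The same 30-base window of both is printed with the differing bases in capitals, which from the 5′ end of the chromosome 7 probe are A26G, C34T and C36T.
Tmsb10, chromosome 7 probe: aagagccacctgcAagatggaCgCgagcca
Tmsb10, chromosome 6 probe: aagagccacctgcGagatggaTgTgagcca
Cfl1 had 3 probes, those at bases 1034 and 1101 on chromosome 19 with the gene, and the one at base 551 on chromosome 8, at chr8:43332671-43332730. The base 551 probe is printed whole and the first 30 bases of the other two, because the readings of the base 551 probe departed from theirs.
Cfl1, base 551: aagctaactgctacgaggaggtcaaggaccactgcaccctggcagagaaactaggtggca
Cfl1, base 1034, first 30 bases: gtaaatgaaatgtggaaatgaccctccctg
Cfl1, base 1101, first 30 bases: ccactcatggaagcaggaccagtaagggac
The single Pfn1 probe was also placed on another chromosome than its gene. In all, 3 of the 16 probes were placed away from their gene, and for them a near-identical copy could not be told apart from the gene.

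Capzb had 2 probes, made from different transcript records. The first below lies at chr4:138843685-138843744 and the second at chr4:138844779-138844838, both on the plus strand, and they are printed because their readings differed.
Capzb, base 795: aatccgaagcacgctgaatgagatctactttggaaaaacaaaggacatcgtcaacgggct
Capzb, base 861: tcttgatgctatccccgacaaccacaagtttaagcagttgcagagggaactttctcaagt

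The signal reported for a probe was the scanner software's processed intensity, scaled so that the arrays shared 1 median over the probes detected in every cell, and set to 50 where it was lower (the floor). The software's own call of well above background decided whether a probe counted as detected in a cell. A probe with that call in all 4 cells of either genotype is called present. The share of probes detected was 19.6%, 21.4%, 26.0% and 24.1% in WT 1 to 4. In KO 1 to 4 it was 24.3%, 17.2%, 17.15% and 20.1%. The part of these shares in the differences below was not tested. In all 8 cells 5301 probes were detected, and 7467 were present. The WT arrays shared 1 slide and scan and the KO arrays a second, and the slide and the genotype cannot be told apart for any difference below. Both Sox17 probes were detected in 0 of 8 cells, the WT cells included, so the deletion could not be checked here. Each of the 8 cells had all 10 myocardial markers, among them Myh6, Tnnt2 and Actc1. A WT cell had 3 to 4 and a KO cell 2 to 4 of 13 endothelial markers, whose summed signal was 1125 to 4909 in WT and 1048 to 2481 in KO cells. None of the 8 cells had Cdh5, Tek, Emcn, Nfatc1, Tal1, Sox18 or Esam, whereas Kdr and Plvap passed in every one. Erythroid markers numbered 0 of 7 in a WT cell and 0 to 1 in a KO cell, and the signals of all 7 were at the floor in every cell. Endoderm markers (0 to 1 of 6 detected) were all at the floor. Proepicardial markers numbered 0 to 1 of 5 in cells of either genotype, with a summed signal of 250 (every marker at the floor) to 674.4 in WT cells, where WT 2 and WT 3 stood above the floor, and of 250 in every KO cell. The part of these other markers in any difference below was not tested.

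Sh3bgrl3 was read far lower in KO than in WT cells by both of its probes. At the base 640 probe the signal was 609.6, 18886.8, 3932.6 and 3130.9 in WT 1 to 4, and 223.7, 331.2, 291.5 and 285.8 in KO 1 to 4. Every KO cell lay below every WT cell, and the KO cells were close together while the WT cells spanned a 31.0-fold range. The mean log2 signal was 11.75 ± 2.03 for WT and 8.13 ± 0.24 for KO (SD over cells, n = 4 per genotype), a KO minus WT difference of -3.62 on the log2 scale, or 12.3-fold.

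The second Sh3bgrl3 probe, at base 233, read 71.4, 6489.4, 2078.1 and 592.9 in WT 1 to 4 and was at the floor of 50 in all 4 KO cells. It was nevertheless detected in all 8 cells, and the KO signals before the floor were 16.3, 20.2, 15.0 and 25.1. The difference was -4.12 on the log2 scale with the floor and -5.53 without it. Both probes ranked the WT cells alike at their ends, with WT 2 highest and WT 1 lowest, and their log2 signals had a Pearson r of 0.98 over the 8 cells, which share the genotype difference that chose the gene.

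The WT average of Sh3bgrl3 rested on uneven cells. The difference at the base 640 probe ran from -4.46 without WT 1 to -2.80 without WT 2, and at the base 233 probe from -5.32 without WT 1 to -3.15 without WT 2. The genotypes came nearest to each other between WT 1 and KO 2, at 609.6 and 331.2 for the base 640 probe.

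Its relative Sh3bgrl was close to undetected. The 1 Sh3bgrl probe was detected in WT 3 at 212.4 and in KO 4 at 68.6, and was at the floor in the other 6 cells. Of the other family members, Sh3bgr was detected in all 8 cells at 8722 to 40445 in WT and 4211 to 26641 in KO cells, with a difference of -0.50 against SDs of 0.94 and 1.12. The genotypes overlapped for Sh3bgr. Sh3bgrl2 was at the floor in every cell.

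**Figure D1:**
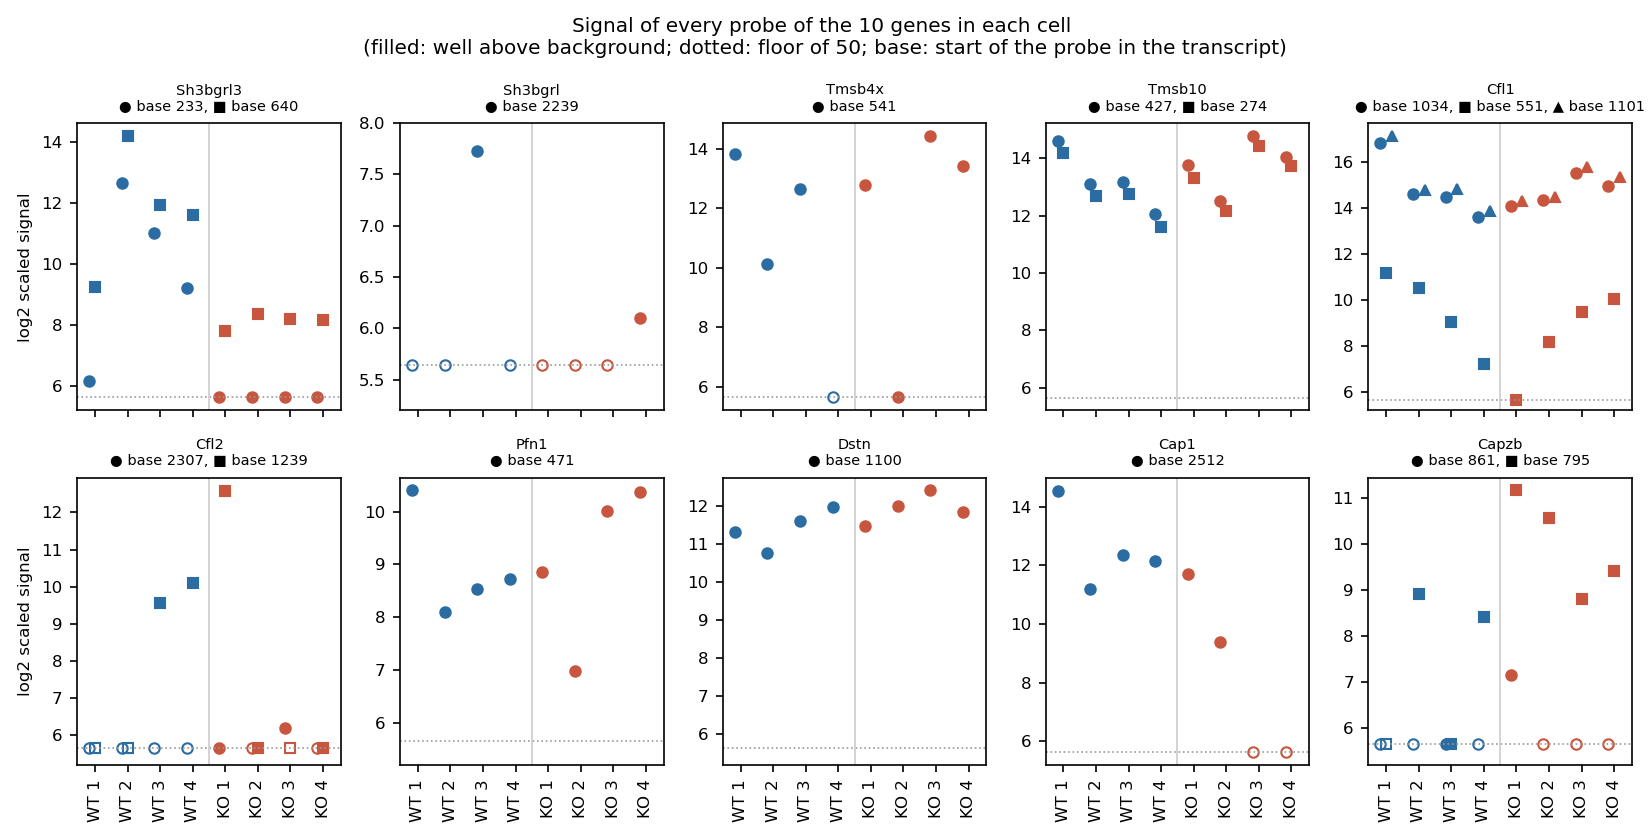
Log2 scaled signal (vertical axes, each with its own range) of all 16 probes of the 10 genes in the 4 WT (blue) and 4 KO (red) cells on the horizontal axes. Filled points were well above background, the dotted line is the floor of 50, and symbols separate the probes of a gene by the base at which they start. The KO cells lie below the WT cells at both Sh3bgrl3 probes and overlap with them in the other 9 genes.

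The monomer-sequestering thymosins were bright in most cells of both genotypes. Tmsb4x read 14586, 1114, 6410 and 50 in WT 1 to 4 and 7025, 50, 21834 and 10881 in KO 1 to 4, with WT 4 not detected and KO 2 detected under the floor. One cell of each genotype was thus at the floor while the others were high, which gave a difference of 1.0 against SDs of 3.62 and 4.00. The sign of that difference depended on single cells, since it was -0.64 without WT 4 and 2.97 without KO 2.

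Tmsb10 was detected in every cell by both probes. The chromosome 6 probe, on the gene's own chromosome, read 18631, 6561, 6929 and 3101 in WT 1 to 4 and 10052, 4536, 22059 and 13736 in KO 1 to 4. WT 1 and KO 3 were the highest cells of their genotypes and WT 4 and KO 2 the lowest, and the genotypes overlapped. The difference was 0.60 on the log2 scale against SDs of 1.06 and 0.96.

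The Tmsb10 probe placed on chromosome 7 gave the same picture. It read 24674, 8790, 9175 and 4265 in WT and 13824, 5898, 27919 and 17051 in KO cells, a difference of 0.55. The pair had an r of 0.999 over the 8 cells, in probes that differed at 3 of 57 shared bases.

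Profilin 1, which feeds monomers to growing filament ends, was read by 1 probe whose position is uncertain. It read 1359.7, 273.5, 370.0 and 424.5 in WT 1 to 4 and 465.7, 127.0, 1028.5 and 1326.8 in KO 1 to 4. WT 1 and KO 4 were nearly level at the top, and the difference of 0.12 was small beside the SDs of 1.01 and 1.52.

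Among the severing proteins, non-muscle cofilin 1 was detected in all 8 cells by all 3 of its probes. The base 1101 probe read 141594, 28389, 29107 and 15059 in WT 1 to 4 and 20382, 22617, 56693 and 41663 in KO 1 to 4. WT 1 was several times above each other WT cell, and all 4 KO signals lay between the lowest and the highest WT signal. The difference was -0.17, with SDs of 1.38 and 0.71.

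The base 1034 probe of Cfl1 gave a difference of -0.17 as well, from 115216, 25042, 23111 and 12589 in WT and 17137, 20899, 46348 and 31653 in KO cells, with an r of 0.997 to the base 1101 probe. The base 551 probe, placed on chromosome 8, did not follow them closely. It read 2290, 1457, 525.3 and 147.7 in WT and 50, 291.1, 720.7 and 1052 in KO cells, with a difference of -1.14 and an r of 0.75 to each of the others. WT 1 was the highest WT cell at all 3 probes, while the top KO cell was KO 3 at 2 of them and KO 4 at the base 551 probe.

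Muscle cofilin, Cfl2, was detected in part of the cells only and had no present probe. Its base 1239 probe read 50, 50, 749.3 and 1097.6 in WT 1 to 4 and 6160.5, 50, 50 and 50 in KO 1 to 4, and was detected in 2 WT and 3 KO cells. The base 2307 probe was at the floor everywhere except KO 3, at 73.4, and was detected in 0 WT and 2 KO cells. The 2 probes were detected together in 1 cell, so no genotype difference is given for this gene.

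Destrin, the remaining member of the cofilin family, had the smallest spread between cells of the 8 genes with a present probe. Dstn read 2525.9, 1739.6, 3085.1 and 3982.9 in WT 1 to 4 and 2810.6, 4067.4, 5393.2 and 3624.8 in KO 1 to 4. All 8 signals lay within a 3.10-fold range, the genotypes overlapped, and the difference was 0.51 against SDs of 0.50 in WT and 0.39 in KO cells.

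Cap1 was lower in KO cells, with overlap. It read 23842, 2339, 5252 and 4546 in WT 1 to 4 and 3322, 667.2, 50 and 50 in KO 1 to 4, where KO 3 and KO 4 were not detected. KO 1 lay above WT 2, so the genotypes were not separate. The mean log2 signal was 12.56 ± 1.41 in WT and 8.09 ± 2.98 in KO cells, a difference of -4.47 that ran from -5.67 without KO 1 to -3.65 without KO 3 or KO 4, and was -6.62 with no floor.

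Capzb was higher in KO cells at 1 of its probes, again with overlap. The base 795 probe read 50, 480.2, 50 and 339.4 in WT 1 to 4 and 2294.9, 1516.5, 444.0 and 681.3 in KO 1 to 4, and was detected in 3 WT and 4 KO cells. KO 3 lay just below WT 2, the other 3 KO cells lay above all WT cells, and the difference was 2.83 on the log2 scale, or 7.13-fold, with SDs of 1.75 and 1.08. It ran from 2.33 without WT 1 or WT 3 to 3.42 without WT 2, and was 4.14 with no floor. The base 861 probe, made from another transcript record, was above the floor in KO 1 alone, at 141.8. The 2 probes were both detected in 2 cells.

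Sh3bgrl3 and Cap1 are also on the list of genes that the study itself picked as lower in mutant myocardium on these arrays, and Capzb on its list of higher genes, so those lists are not independent evidence of a direction.

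**Figure D2:**
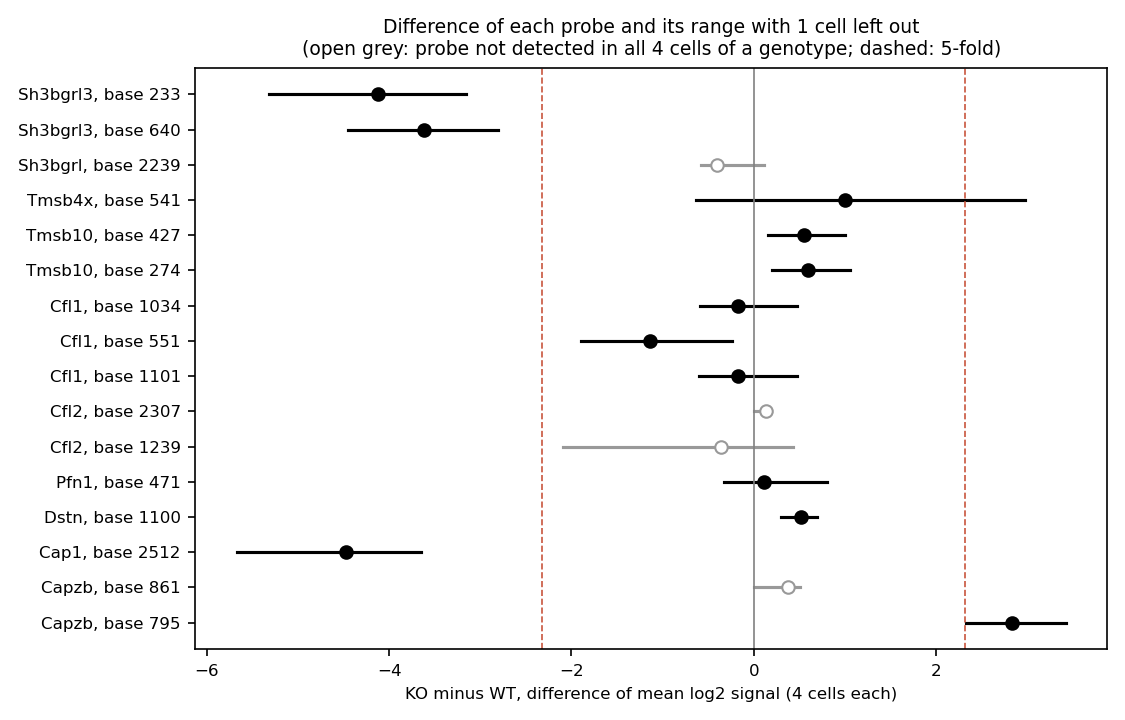
KO minus WT difference of mean log2 signal (horizontal axis) for the member probes, with lines for the range when 1 cell was left out and dashed lines at 5-fold. Both Sh3bgrl3 probes and Cap1 stand beyond 5-fold lower at -3.62, -4.12 and -4.47, the Capzb base 795 probe stands at 2.83, and the points of the remaining probes lie between the dashed lines.

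Of the 16 probes, 12 were present, covering 8 of the 10 genes, and 9 were detected in all 8 cells. The Cap1 probe was present through the WT cells alone, and those of Tmsb4x and Capzb through the KO cells alone, so a filter of this kind favours a difference for them. A difference of at least 5-fold towards lower signal in KO cells was read at 3 of the 12 (2 of Sh3bgrl3, 1 of Cap1), against 6.88% of the whole 7467, and towards higher signal at 1 (Capzb), against 1.75%. Without the Sh3bgrl3 probes that chose the set, 1 of 10 present probes was lower. The genotypes were separate, with all KO below all WT cells, at the 2 Sh3bgrl3 probes, where 2.26% of present probes were, and at 0 probes in the other direction, where 3.27% were. These counts describe a set chosen with the difference of Sh3bgrl3 known, and nothing further is read from them.

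The 12 present probes were split evenly in sign, with 6 above 0 and 6 below 0. Of all 7467 present probes, 2888 (38.7%) were below 0, 3806 were above 0 and the rest were at 0. Taking each gene by its brightest probe, the median difference of the 10 genes was -0.03, and that of the 8 with a present probe was 0.31, against 0 over the 3397 named genes with a present probe. The median pooled SD of the 12 probes was 1.37, and the pooled SD went from 0.45 for Dstn to 3.82 for Tmsb4x. Over all present probes the median was 0.83. Of those probes, 772 were at the floor in all 8 cells and so had no spread, against 0 of the 12. By the brightest present probe of each gene, the median was 1.37 for the 8 genes and 1.11 for all named genes.

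The 8 genes with a present probe did not vary as 1 group from cell to cell. WT 1 was the highest cell for Cfl1, Pfn1 and Cap1, and KO 3 for Tmsb4x, Tmsb10 and Dstn. WT 2 was highest for Sh3bgrl3 and KO 1 for Capzb. The mean deviation of the 8 genes from their own average was largest in WT 1, at 0.94, and lowest in KO 2, at -1.15.

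Across the 8 cells, with genotype and slide shared among the points, Tmsb4x, Tmsb10, Pfn1 and Cfl1 varied in parallel. These 4 are named together for their correlations, and no r over other gene pairs is set beside them. Pearson r was 0.91 between Tmsb4x and Tmsb10, 0.82 between Tmsb10 and Cfl1, 0.79 between Tmsb10 and Pfn1, 0.76 between Tmsb4x and Pfn1, 0.70 between Cfl1 and Pfn1 and 0.67 between Tmsb4x and Cfl1. With these 4 genes, destrin had r of -0.09 to 0.14. Cap1, which also acts on monomers, had r of -0.29 to 0.02 with them, and Capzb of -0.55 to -0.19. The 4 were chosen from the same pairs, so lower values for the other genes follow from that choice. Sh3bgrl3 had r of -0.25 to -0.49 with the same 4 genes, -0.59 with Dstn, -0.40 with Capzb and 0.43 with Cap1. Each of these is a description over 8 points.

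Among 1154 other genes whose brightest probe had a detected signal over the floor in each of the 8 cells, the 5 with the pattern most like Sh3bgrl3 were Hrc, Fam89b, Derl2, Ywhaq and Ppp1r2, where the median r over all candidates was -0.19. Hrc, a calcium-binding protein of the sarcoplasmic reticulum, had an r of 0.94. It read 79.6, 15415, 2976 and 6778 in WT and 113.8, 80.9, 120.7 and 217.5 in KO cells, so WT 1 sat with the KO cells. Fam89b, at r = 0.89, read 197.2, 1243, 250.2 and 640.9 in WT and 125.0, 51.5, 127.0 and 50.7 in KO cells, with all KO below all WT cells.

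Ywhaq, which encodes the 14-3-3 theta adaptor, had an r of 0.75 and was likewise separate between the genotypes, at 10110 to 18365 in WT and 2915 to 7204 in KO cells. Derl2, a factor of protein export from the endoplasmic reticulum, reached 0.76 through WT 2 and WT 4, at 3895 and 2998, with the other 6 cells at 60.5 to 124.4. Ppp1r2, an inhibitor subunit of protein phosphatase 1, had an r of 0.75 with overlap and a difference of -0.83. Likeness to a gene chosen for a genotype difference brings in genes with the same difference, so none of the 5 is a separate finding.

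**Figure D3:**
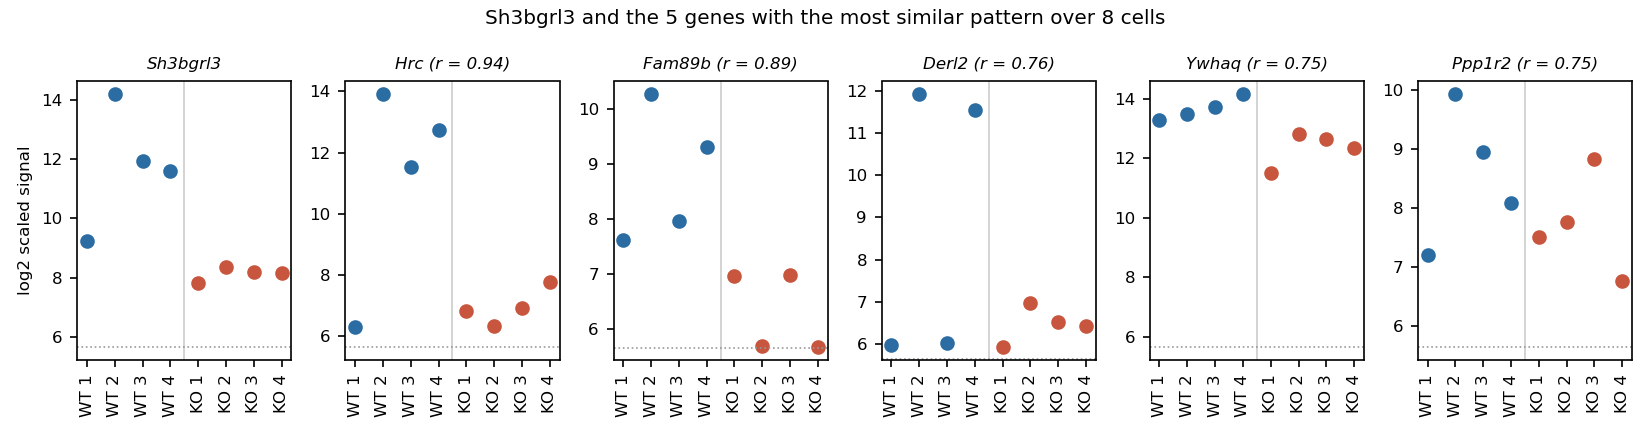
Log2 scaled signal (vertical axis) of Sh3bgrl3 and the 5 genes most like it in the 8 cells (horizontal axis, WT 1 to 4 then KO 1 to 4), with Pearson r given for each gene. WT 2 is the highest cell for Sh3bgrl3, Hrc, Fam89b, Derl2 and Ppp1r2, and Ywhaq is highest in WT 4.

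Of 71 further genes of the pathway and the SH3BGR family, listed by role, 25 had a present probe. Of these, 6 were at least 5-fold lower in KO cells and 1 was higher, where 10.8% and 2.68% of all named genes with a present probe were. Of the 6, Twf1, Pdxp and Rhoa stayed beyond 5-fold with any 1 cell left out. The others did not, as Add1 was -1.95 without KO 2 and -2.22 without KO 3, Evl was -2.09 without WT 2, -2.05 without KO 3 and -2.18 without KO 4, and Vasp came to -2.23 to -1.70 without any 1 of WT 1, WT 2, WT 4, KO 2, KO 3 and KO 4. Brk1, the higher gene, was 2.21 without WT 1 or WT 2. Twf1, Pdxp, Rhoa and Vasp were present through the WT cells alone and Brk1 through the KO cells alone, so the filter favours a difference for them. Leaving out a cell did not apply the filter again, so staying beyond 5-fold is a description and no support for these genes. The median difference of the 25 genes was -0.50, with 15 below 0, 7 above 0 and 3 at the floor in every cell. Of the 3397 named genes, 1489 (43.8%) were below 0 and 1601 above 0. Of the 25, 11 were present through the WT cells alone and 4 through the KO cells alone, where 881 and 318 of the 3397 were. The filter favours a lower KO signal for genes present through the WT cells alone. The genes just outside and just inside 5-fold were Wdr1, a cofactor of cofilin, at -2.30, and Vasp at -2.33.

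Counts by role, here and in the next paragraphs, rest on few present genes each. Of all named genes with a present probe, 10.8% were at least 5-fold lower and 2.68% higher. No effect on a role is read from these counts. In monomer binding and disassembly, 5 of 16 listed genes were present and 1 of them was beyond 5-fold. Twf1, the monomer-binding twinfilin, read 4272, 1822, 377.2 and 957.9 in WT and 127.5, 50, 50 and 436.1 in KO cells, a difference of -3.58, and it too is on the study's own list of lower genes. KO 4 lay above WT 3, so the genotypes overlapped. Among end-capping genes, 2 of 11 were present. Add1, an adducin, read 7392, 4803, 3472 and 3444 in WT and 9550, 73.7, 128.2 and 1313 in KO cells (-2.95), with KO 1 above all WT cells. The second Add1 probe was not present and was above the floor in KO 1 alone. Capza1, the partner of Capzb in capping protein, differed by 0.62, and by -0.004 without WT 1, at a probe placed on another chromosome than its gene, while its probes on the gene's own chromosome 3 were at the floor in all 8 cells.

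The Arp2/3 complex, which nucleates branched filaments, and its activators had 7 of 17 genes present, 0 lower and 1 higher. The higher gene was Brk1, a small subunit of the WAVE complex, at 50, 50, 942.7 and 3764 in WT and 4187, 5760, 268.4 and 6991 in KO cells, a difference of 3.08 with overlap. Subunits of the complex itself differed by -2.12 (Actr2), -1.72 (Arpc2), -1.57 (Arpc1a) and -0.43 (Arpc4), each with overlap between the genotypes. Of these, Arpc2 turned to 0.13 without KO 2 and Arpc4 to 0.26 without WT 1.

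Formins and Ena/VASP proteins, which elongate filaments, had 4 of 11 genes present, 2 of them lower. Evl read 66.5, 10365, 5529 and 4507 in WT and 9114, 198.4, 50 and 66.2 in KO cells (-2.87), and Vasp read 1252, 414.9, 50 and 526.9 in WT and 173.0, 50, 50 and 50 in KO cells (-2.33). For Evl, WT 1 was low and KO 1 high, against the direction of the difference. It was -4.52 without WT 1 and -4.55 without KO 1. Vasp was at the floor in WT 3.

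Cofilin phosphorylation and small GTPases had 5 of 14 genes present, 2 of them lower. Pdxp, the phosphatase that activates cofilin, read 26751, 2528, 2147 and 362.1 in WT and 50, 50, 50 and 5185 in KO cells (-4.08), with KO 4 above 3 of the WT cells, and a second Pdxp probe, also present but placed on chromosome 8 and not on the chromosome 15 of the gene, differed by -0.99. Rhoa read 1447, 1553, 790.5 and 2531 in WT and 50, 50, 553.6 and 50 in KO cells (-4.0), and it was the one gene of the 25 with all KO below all WT cells, where 3.33% of named genes were. Its probe was placed on chromosome 4 whereas RefSeq has the gene on chromosome 9, and the Rhoa probe on chromosome 9 was at the floor in 7 cells. The GTPases Cdc42 and Rac1 differed by -0.37 and 1.13, against pooled SDs of 3.43 and 2.70.

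**Figure D4:**
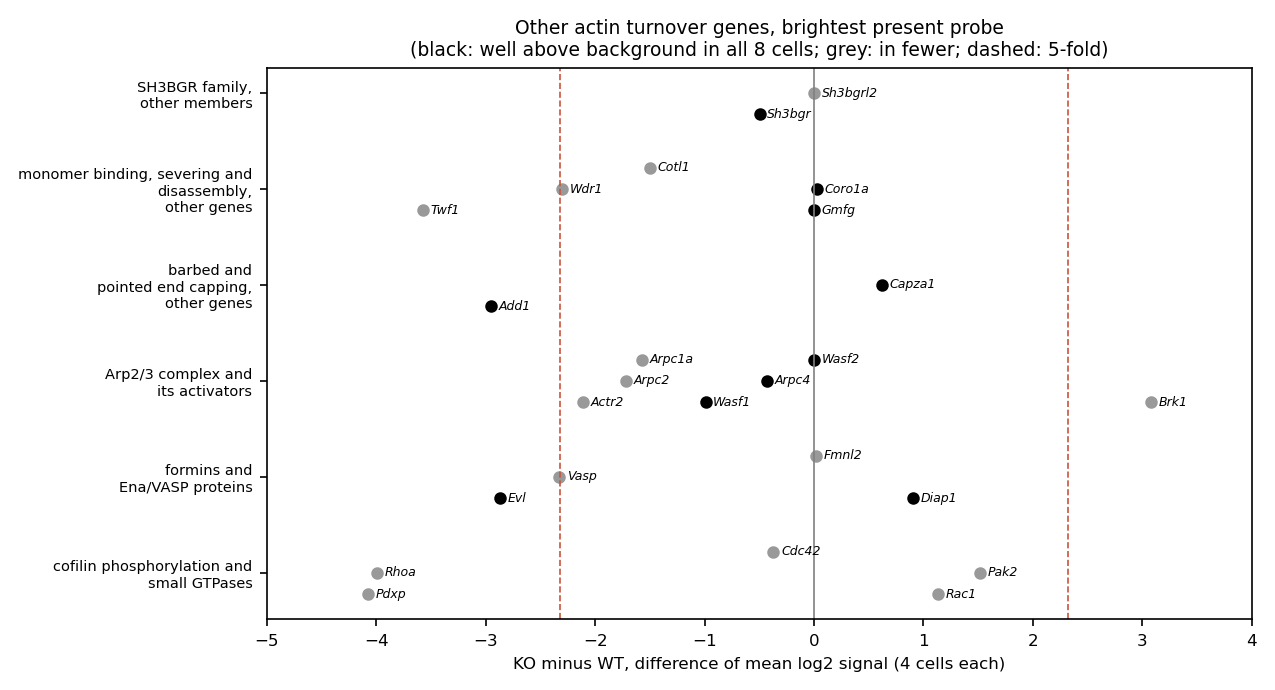
KO minus WT difference of mean log2 signal (horizontal axis) of the 25 further pathway genes with a present probe, grouped by role, with dashed lines at 5-fold. Black points were detected in all 8 cells and grey points in fewer, and Twf1, Add1, Vasp, Evl, Pdxp and Rhoa lie at or beyond the lower line and Brk1 beyond the upper.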

How the data were processed

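RNA of 8 single myocardial cells was read on one-colour Agilent arrays of 60-base probes. Per the labels, the heart tube was dissociated with trypsin, and the methods name the ventricle as the source of the cells. RNA was reverse transcribed from an oligo-dT primer, amplified, typed by PCR for marker genes, transcribed from a T3 promoter and labelled with Cy3. The authors state that values under 50 were set to 50 and that each chip was scaled on its 50th percentile.

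The deposited files held the scanner intensity on a linear scale from Agilent Feature Extraction 12.0.2.2 per the file headers: the processed signal, already background-corrected, and the mean and background intensity. Other deposited columns were the software's flags and the probe annotation, with mm9 positions. Exon and UTR annotation was not used here.

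Control and outlier spots (146 to 220 per array) were left out, 0 spots were saturated, and log2 signals of a probe's spots were averaged. Arrays were shifted by -0.76 to 0.68 on the log2 scale to a common 50th percentile over the 5301 probes detected in all 8 cells, then floored at 50. Differences are means of 4 KO minus 4 WT log2 values, and 5-fold (2.32 on the log2 scale) follows the study's size rule. A gene was represented by its brightest probe. The text names all 10 members, each listed pathway gene beyond 5-fold and the 5 genes most correlated with Sh3bgrl3. Other genes named with a value serve as examples of their list. Members and lists were chosen with earlier results of these data known. Alternatives covered the percentile, quantile normalization, normexp (limma 3.58.1, R 4.3.3), the floor, outlier spots, the presence rule, the fold, medians and each left-out cell. Leaving out cells for the pathway genes beyond 5-fold was added after seeing the data. The calculation was tested on simulated data. Chromosomes of genes came from RefSeq (GRCm38.p6). Precision is limited by the 8 arrays. The result of 1 further marker list is not reported here.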

Additional observations from a re-analysis of the deposited data

Results flagged for a closer look

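Of 29 groups of 4 cells examined at the 16 probes, 5 held a cell farther from its 3 companions than a limit that chance passes in about 1 of 20 groups. These were WT 3 for Sh3bgrl at 212.4, KO 4 for Sh3bgrl at 68.6, KO 1 for the Cfl2 base 1239 probe at 6160.5, KO 3 for the Cfl2 base 2307 probe at 73.4 and KO 1 for the Capzb base 861 probe at 141.8. In each of the 5 the other 3 cells were at the floor of 50, so that any single cell above the floor passes the limit.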

How the results depend on the processing

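No paired analysis was possible because a number shared by a WT and a KO cell named no common embryo. No result came from a test. The Sh3bgrl3 difference kept its direction in every setting, from -4.46 to -2.80 with 1 cell left out and from -3.97 to -3.35 otherwise, and the directions of Cap1 and of Capzb (base 795) also held in all 15 settings tried for each probe. The count of probes at least 5-fold lower was 2 to 3, and 4 were at least 2-fold lower. The count at least 5-fold higher, 1, became 0 among probes detected in all 8 cells, 2 at 2-fold, 0 at 10-fold, and 1 to 2 with 1 cell left out, the second being Tmsb4x without KO 2. The median of the other actin turnover genes, -0.50, was -0.85 when arrays were scaled over all probes, -0.85 with no floor, -0.99 with the mean of all present probes of a gene, and -0.93 (without WT 2) to -0.30 (without KO 2) with 1 cell left out. The cause was not tested. The median of the 10 members ran from -0.33 to 0.48, with both signs. The signs of the Cfl1 (bases 1034 and 1101), Tmsb4x and Pfn1 differences turned with single cells or the scaling. Over the probes detected in all 8 cells the median difference was 0.15, against 0 to 0.32 under other scalings, so each difference is relative to that shift. Signals near background limit Sh3bgrl, Cfl2 and Capzb (base 861).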

Other observations

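Of the 71 further pathway genes, 46 had no present probe, and 9 of these were detected in 0 of 8 cells: Tmsb15l, Lmod2, Arpc1b, Arpc5l, Diap3, Fmnl3, Ssh1, Ssh3 and Pak1. Among genes of the sarcomeric thin filament, Lmod2, a leiomodin of cardiac muscle, was at the floor in every cell, Tmod1, the pointed-end capper, was detected in 2 WT and 0 KO cells, and Lmod3 in 2 cells of each genotype. Fhod3, a formin of cardiac sarcomeres, was detected in 3 cells of each genotype. The second cyclase-associated protein, Cap2, which is the muscle form, was detected in 2 WT and 2 KO cells.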
